A study of Arabidopsis with 8 samples.

Results

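Roots and shoots of wild-type Arabidopsis seedlings were compared across genes. The comparison covered 4 libraries of the Col-0 accession, 2 from root and 2 from the shoot part of 5-day-old seedlings, out of 8 libraries in the series. The other 4 came from the same tissues of a quadruple mutant labelled saur41/40/71/72, named for members of a small auxin-response gene subfamily. They entered only the estimate of the spread, the factors of the rescaled values and a second look at the tissue difference. A gene was taken when its mean reached 1 FPKM (fragments per kilobase of transcript, scaled to the mapped fragments of the library) over either tissue's 2 Col-0 libraries, with a gene absent from a table taken as 0. This gave 19946 genes of the 25397 listed in any library, of which 18940 reached the minimum in root, 16234 in shoot and 15228 in both. Among protein-coding genes the nearest to the minimum were CTPA3 and AT3G19184, just outside at higher-tissue means of 0.9959 and 0.9965 FPKM, and AT1G21510 and AT3G61920, just inside at 1.0006 and 1.0011 FPKM. No treatment is labelled, and the labels give neither the light conditions nor the number of plants in a library, nor do they say whether the shoot part held the hypocotyl as well as the cotyledons and young leaves. Nor is it stated that replicate libraries come from independent plants, and the p-values therefore measure the spread between these libraries, which may be technical.

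A seedling root anchors the plant and takes up water and minerals. Root hairs enlarge its surface, the endodermis seals the path between cells with the Casparian strip and suberin, and the tip holds a meristem under a protective cap. The shoot of a seedling fixes carbon in chloroplasts, covers its epidermis with a waxy cuticle, exchanges gas through stomata and forms leaves at its own meristem. Roots hold non-green plastids that use some of the same redox and nitrogen enzymes, often encoded by separate genes. In whole organs, fewer cells of a type and less RNA per cell cannot be told apart.

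The 4 Col-0 libraries differed in composition before any single gene was considered. The photosystem and Calvin cycle genes listed below took 0.272% and 0.276% of all FPKM in the root libraries, against 38.2% and 32.4% in the shoot libraries. The median FPKM of listed genes was 9.79 and 9.8 in root and 3.33 and 5.02 in shoot, and 22774 and 22684 genes were listed in root against 21355 and 21862 in shoot. The number of reads is not given in the sources used here; from the spacing of low values, the depth of replicate 2 relative to replicate 1 was 0.874 in root and 0.886 in shoot. Shoot replicate 1 stood apart from replicate 2. The SD of the log2 difference between replicates was 0.59 in shoot and 0.21 in root, and the difference between the shoot replicates fell with the genomic span of the gene (Spearman's rho -0.59 across genes, which are not independent), with a median of 0.12 in the shortest of 5 equal classes of genes and -0.82 in the longest. The shoot values of long genes thus differed most between replicates. A pair of highly abundant genes is listed at 0 where other libraries of the tissue hold large values. LHCB1.3, a chlorophyll-binding antenna protein, had 61.4 and 56.9 FPKM in root and was listed at 0 in shoot replicate 1 and at 21258 FPKM in shoot replicate 2. AT3G41768, annotated as a ribosomal RNA, had 1810 and 4232 FPKM in root and was listed at 0 in both Col-0 shoot libraries but at 4430 FPKM in shoot replicate 1 of the mutant. No difference is described for either, and both stay in the counts over all genes.

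Most genes had higher FPKM in root, and the number called depended on the scaling. On the scale used throughout, log2(FPKM + 1), which understates the change of low genes, the change of root minus shoot had a median of 1.23 over the 19946 genes and was positive for 80.2% of them. With a call defined as a limma adjusted p under 0.05 and a change of at least 1, 11662 genes (58.5%) were higher in root and 2326 (11.7%) higher in shoot on the deposited FPKM. Each library was then rescaled by the median ratio to the mean library, which brings the median change near 0 by design. The median change after it was 0.10, and 4009 genes (20.1%) were higher in root and 4416 (22.1%) higher in shoot. Root values lay above shoot values without overlap for 75.9% of genes and below them for 16.6%. Root held 83.4% of the calls as deposited and 47.6% after rescaling. All 2326 shoot calls on deposited FPKM were made again after rescaling, while 7653 of the root calls were not, and 1461 of those root calls had a negative change after it. Below, a gene is written as higher in root or in shoot only where it was called both ways, which holds for 4009 genes in root (20.1% of genes) and 2326 in shoot (11.7%). A count called both ways is to be read against these shares. Changes are given on deposited FPKM, with negative values for lower in root, and can be read against the median of 1.23. Beyond the genes that a stated rule picked, some genes of the lists are named that were chosen after their values were seen.

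**Figure D1:**
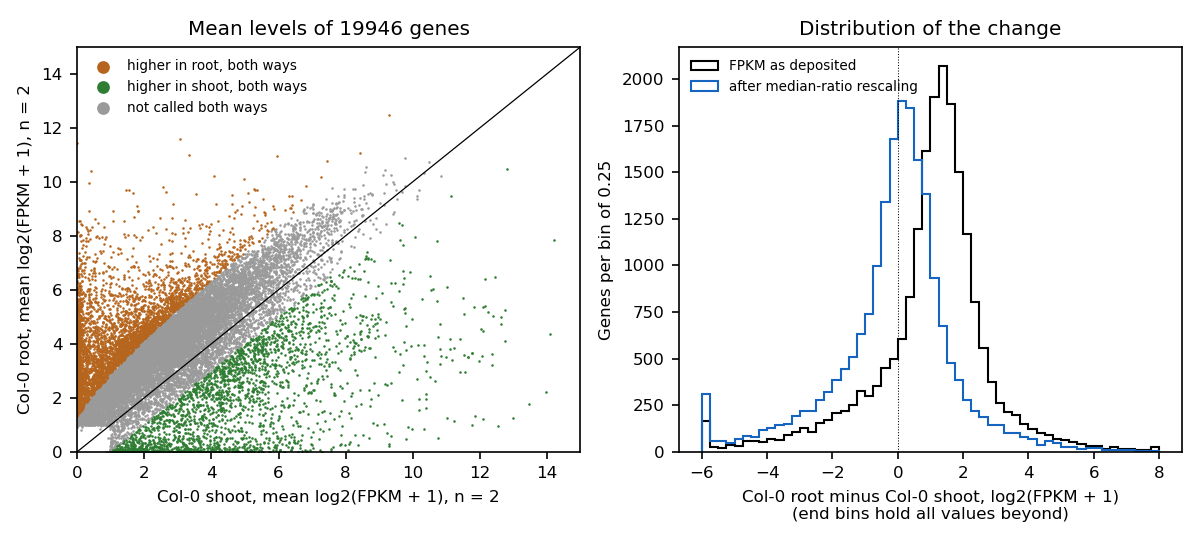
Left, mean log2(FPKM + 1) of each of the 19946 genes in Col-0 root (vertical axis) and Col-0 shoot (horizontal axis), coloured by the call made both ways; the line marks equal levels. Right, the number of genes by their change of root minus shoot, with a median of 1.23 on deposited FPKM and 0.10 after median-ratio rescaling.

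Among genes called both ways, the rescaled change reached 4 for 362 genes higher in root and 819 higher in shoot, and it reached 8 for 3 genes in root and 85 in shoot. The 3 root genes are DOX1, GRP9 and AT3G41768, whose shoot zeros are in doubt. On the rescaled scale, very large differences were thus more often towards shoot. On deposited FPKM more root genes reached 8, such as EXT3 and FLS5 at 8.52 and 8.58, against 7.19 and 7.76 after rescaling. Shoot genes moved the other way, as CA2 did from -9.33 to -10.28. Because a shoot gene must also pass on the deposited scale, where the median lies at 1.23, the rule asks a larger rescaled change of shoot genes than of root genes.

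Tissue markers went with the labels, though by unlike amounts. The shoot meristem and leaf list differed little, with sums of 207 and 218 FPKM in root and 254 and 341 FPKM in shoot. The summed FPKM of the photosystem and Calvin cycle lists was 1829 and 1869 in root, against 273788 and 214996 in shoot. The endodermis list summed to 578 and 525 FPKM in root and 16.3 and 12.1 FPKM in shoot, and the root hair list to 484 and 454 FPKM in root and 16.1 and 28.7 FPKM in shoot. Of the 27 root hair genes, 14 were not listed in either shoot library, among them the expansins EXPA7 and EXPA18. Xylem genes summed to 372 and 454 FPKM in root and 144 and 161 FPKM in shoot, so the vascular list was present in both organs. Seed storage and oil body genes were near 0, at 0.179 and 0.219 FPKM in root and 6.2 and 2.66 FPKM in shoot.

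**Figure D2:**
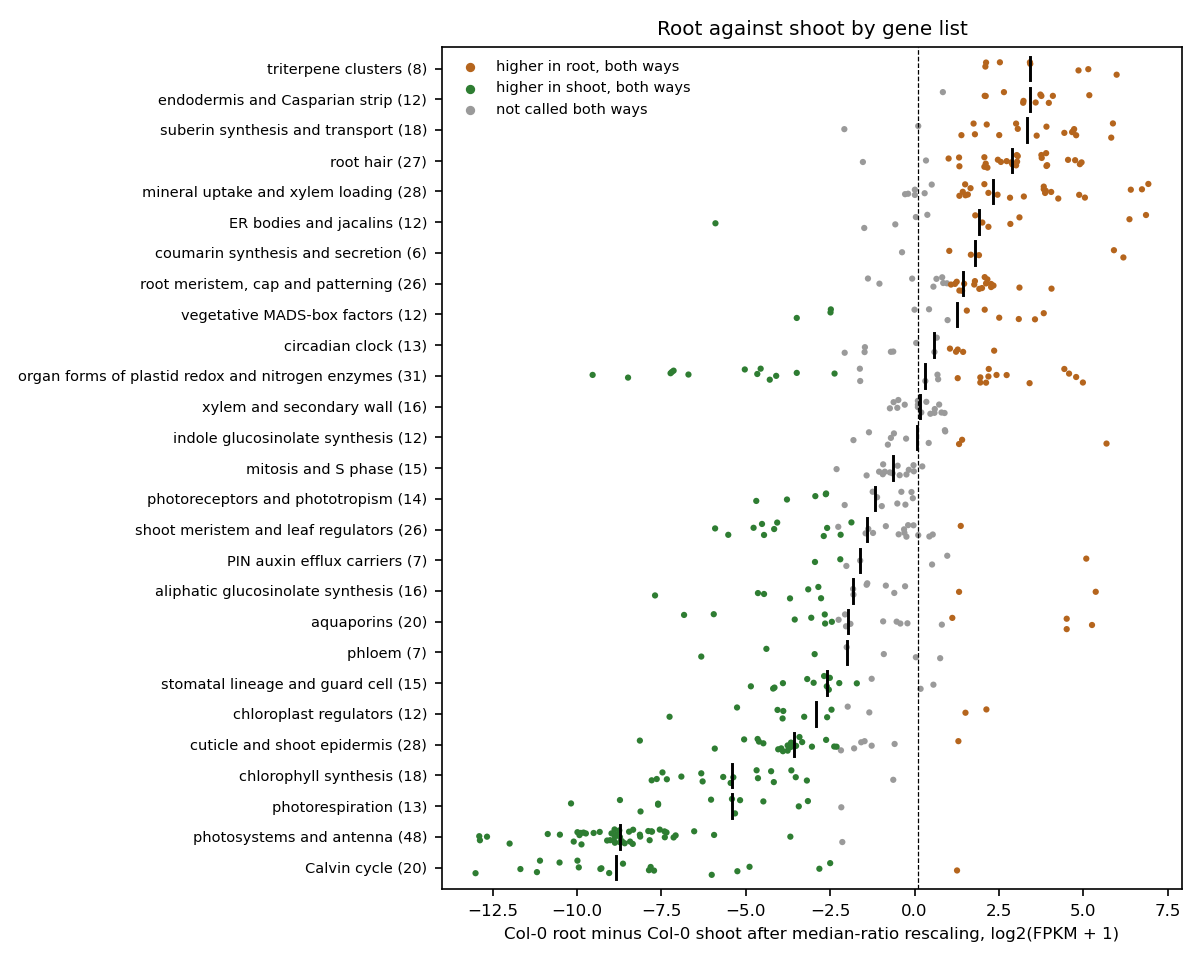
Change of Col-0 root minus Col-0 shoot after median-ratio rescaling (horizontal axis, log2(FPKM + 1)) for each member of 27 gene lists, 1 point a gene, with the number of tested members in brackets. Black ticks mark list medians and the dashed line the median of all genes, 0.10; list medians run from -8.84 for the Calvin cycle to 3.42 for the triterpene clusters.

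The light-harvesting and electron transport genes formed the largest block of the shoot programme. Of 48 nuclear genes for photosystem subunits, antenna proteins and their electron carriers, 47 were higher in shoot both ways and none in root, and the median change was -7.46. LHCB1.3, described above, was the exception. LHCB1.1 (AT1G29920; TAIR10 chromosome 1, 10474784 to 10475959), an antenna protein of photosystem II, had 1.1 and 1.65 FPKM in root and 10051 and 6636 FPKM in shoot (change -11.76, SE 0.29, limma adjusted p = 2.03e-07). Both shoot libraries lay far above both root libraries. LHCB1.1, LHCB1.2 and LHCB1.3 are near-identical neighbours, so the division of reads among them is uncertain. Other antenna genes differed in the same direction. LHCB2.2 had 1.09 and 1.61 FPKM in root and 5288 and 3701 FPKM in shoot (change -10.89), and LHCA6 was at 0 and 0.0461 FPKM in root and at 216 and 163 FPKM in shoot. The block was not uniform. LHCB1.5 kept 227 FPKM in each root library, against 23183 and 15485 FPKM in shoot (change -6.38), and LHCB4.3, a minor antenna protein, had 2 and 1.28 FPKM in root and only 17 and 12.6 FPKM in shoot (change -2.58). The water-oxidation subunits PSBO1 and PSBO2 also differed in their root level: PSBO1 had 40.2 and 41.7 FPKM in root and 5266 and 3895 FPKM in shoot, and PSBO2 10 and 8.19 FPKM in root and 1700 and 1125 FPKM in shoot.

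The enzymes of carbon fixation followed, with 19 of 20 Calvin cycle genes higher in shoot both ways, 1 higher in root and a median change of -7.52. The Rubisco small subunit gene RBCS3B (AT5G38410; chromosome 5, 15377173 to 15378416) had 3.21 and 4.2 FPKM in root and 18636 and 14098 FPKM in shoot (change -11.76, SE 0.28, limma adjusted p = 2.01e-07). RBCS1A had 18.6 and 20.6 FPKM in root and 21083 and 14477 FPKM in shoot. RBCS1B, RBCS2B and RBCS3B lie side by side and are near-identical copies, so their separate values are uncertain. Phosphoribulokinase, PRK, the step that makes the acceptor of carbon dioxide, had 1.18 and 0.631 FPKM in root and 891 and 953 FPKM in shoot (change -8.94). Enzymes that also serve other pathways differed less: transketolase TKL1 had 340 and 376 FPKM in root and 707 and 829 FPKM in shoot (change -1.10, and -0.98 without shoot replicate 2, which ends its call), and the plastid triose phosphate isomerase TIM had 141 and 147 FPKM in root and 412 and 361 FPKM in shoot (change -1.42). The member higher in root was CP12-3, whose relatives link a pair of Calvin cycle enzymes into an inactive complex in the dark. It had 22.9 and 22.5 FPKM in root and 2.75 and 3.81 FPKM in shoot (change 2.48, SE 0.17, limma adjusted p = 1.01e-05), while CP12-1 and CP12-2 were higher in shoot (changes -3.49 and -6.69).

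Photorespiration, which recycles the product of Rubisco's reaction with oxygen, was higher in shoot for 12 of 13 genes (median -4.02) and for none in root. The glycolate oxidase GOX1 had 0.588 and 1.01 FPKM in root and 1060 and 966 FPKM in shoot (change -9.15), whereas its neighbour GOX2 had 29.4 and 29.6 FPKM in root and 462 and 475 FPKM in shoot (change -3.94). The peroxisomal enzymes AGT1, an aminotransferase, and HPR1, hydroxypyruvate reductase, had changes of -7.44 and -6.88. Catalase CAT2 stood at 238 and 222 FPKM in root and 774 and 795 FPKM in shoot (change -1.76), the smallest change among the genes called. The glycine decarboxylase gene GLDP2 was not called on deposited FPKM, with 84.5 and 88.8 FPKM in root and 113 and 199 FPKM in shoot. The other copy, GLDP1, had 34.4 and 33.3 FPKM in root and 682 and 1113 FPKM in shoot (change -4.65).

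Chlorophyll synthesis was higher in shoot for 17 of 18 tested genes (median -4.06) and for none in root. Among the early steps from glutamate, which also supply haem, the differences were moderate: HEMA1 had 40.2 and 40 FPKM in root and 224 and 356 FPKM in shoot (change -2.79), and GSA1 25.6 and 27.4 FPKM in root and 120 and 120 FPKM in shoot (change -2.14), while GSA2, the other gene for that step, had a change of -4.03. HEMA2, the second gene for the first step, was called in neither direction (22.3 and 22.7 FPKM in root, 10.3 and 17.8 FPKM in shoot). The branch that makes only chlorophyll ranged more widely. GUN4, an activator of magnesium chelatase, had 1.55 and 1.93 FPKM in root and 286 and 259 FPKM in shoot (change -6.64). The light-dependent protochlorophyllide reductases PORB and PORC had changes of -6.39 and -6.24, and PORA, the form of dark-grown seedlings, stayed under 1 FPKM in all 4 libraries. CHLD, a subunit of the chelatase, had 9.88 and 9.52 FPKM in root and 61.1 and 105 FPKM in shoot (change -2.92).

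Regulators of the chloroplast were divided between the organs. GLK1 and GLK2, transcription factors that switch on photosynthesis genes, were higher in shoot, GLK1 with 0.138 and 0.233 FPKM in root and 109 and 88.4 FPKM in shoot (change -6.39) and GLK2 with 7.15 and 6.11 FPKM in root and 127 and 108 FPKM in shoot (change -3.96). The GATA factors GNC and CGA1 and the sigma factors SIG2, SIG4 and SIG6 of the plastid RNA polymerase were higher in shoot as well (changes from -3.31 to -1.84). SIG1 was also called (change -1.27), but its change was -0.52 without shoot replicate 2, which ends the call, and leaving out either root library also raised its adjusted p above the threshold. HY5 and HYH, related bZIP factors that act downstream of photoreceptors, were higher in root: HY5 had 35 and 34.2 FPKM in root and 1.97 and 3.3 FPKM in shoot (change 3.32, SE 0.23, limma adjusted p = 1.41e-05), and HYH 41 and 37 FPKM in root and 5.02 and 4.53 FPKM in shoot (change 2.79). In all, 8 of the 12 regulators were higher in shoot and 2 in root.

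Of 14 genes of light perception and phototropism, 5 were higher in shoot both ways and none in root. Their median change was 0.01 on deposited FPKM, below the 1.23 of all genes. After rescaling the median was -1.17, and all 14 changes were negative, the highest at -0.05. On that scale 8 genes were called in shoot and none in root, against 22.1% and 20.1% of all genes. The blue-light receptor PHOT2 had 2.17 and 2.24 FPKM in root and 23 and 55.2 FPKM in shoot (change -3.52), and PKS2, which acts with the phototropins, had 2.11 and 1.47 FPKM in root and 15.2 and 17.9 FPKM in shoot (change -2.66). The other 3, PHOT1, CRY1 and RPT2, lost the call without shoot replicate 2, with changes of -0.65, -0.76 and -0.91, and PHOT1 also lost it without either root library (adjusted p = 0.0887 and 0.0901). PHYA, the far-red sensor, was called on deposited FPKM (41.5 and 47.6 FPKM in root, 10.3 and 29.3 FPKM in shoot) and had a change of -0.05 after rescaling. For PHYB the values were 23.1 and 27.1 FPKM in root and 7.71 and 20.4 FPKM in shoot, and it was called in neither direction. Values of these genes differ more between the shoot libraries than between the root libraries.

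The shoot epidermis gave a clear group. Of 28 tested genes for cuticle formation and epidermal identity, 21 were higher in shoot and 1 in root (median -2.35). The lipid transfer protein LTP1 had 9.34 and 12 FPKM in root and 1801 and 918 FPKM in shoot (change -6.80). CUT1, a fatty acid elongase for wax, had 4.75 and 6.21 FPKM in root and 155 and 163 FPKM in shoot (change -4.63), and MYB16, a cuticle regulator, was not listed in root and had 6.21 and 8.3 FPKM in shoot. The homeodomain factors ATML1 and PDF2, which set epidermal identity, had changes of -3.29 and -2.44. CER4, a reductase that makes primary alcohols, was the member higher in root, with 3.4 and 2.27 FPKM in root and 0.105 and 0.0596 FPKM in shoot (change 1.81). GPAT4 and KCS1, which serve lipid barriers, were called after rescaling only (changes 0.11 and -0.10 on deposited FPKM), and LACS1 was called (change -1.18) but not without shoot replicate 2 (change -0.47). Leaving out either root library or any mutant library also took the adjusted p of LACS1 above the threshold.

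Most stomatal genes were near 0 in root. Of 15 tested genes of the stomatal lineage and of guard cells, 12 were higher in shoot and none in root both ways. EPFL9, a peptide that promotes stomata, EPF1 and EPF2, peptides that space them, and FAMA, the factor of the last division, were not listed in either root library. EPFL9 had 12.6 and 7.62 FPKM in shoot, and FAMA 2.58 and 6.06 FPKM. The receptor-like protein TMM had 0.112 and 0.161 FPKM in root and 16.9 and 17.9 FPKM in shoot (change -4.02, SE 0.18, limma adjusted p = 1.27e-06). The anion channel SLAC1 was called with low values (0 and 0.0596 FPKM in root, 0.871 and 2.02 FPKM in shoot) and had a change of -0.86 without shoot replicate 2, short of a call. FLP, a MYB factor, and OST1, a kinase of abscisic acid signalling, were called higher in root on deposited FPKM only; neither is confined to stomata. MUTE, BASL and KAT2 stayed below the minimum, with no FPKM listed in root and up to 1.44 FPKM in shoot.

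Leaf polarity genes of the YABBY family marked the shoot sharply. YAB1 had 0.0442 and 0.0507 FPKM in root and 34.8 and 35.2 FPKM in shoot (change -5.10, SE 0.13, limma adjusted p = 2.02e-07). YAB3 had 0.0331 and 0 FPKM in root and 26.8 and 25.2 FPKM in shoot, and YAB2 was not listed in root and had 11.2 and 14.1 FPKM in shoot. The CIN-type TCP factors TCP2, TCP4 and TCP10, which limit leaf growth, had changes of -3.37, -2.91 and -3.70. STM, the homeobox factor that maintains the shoot meristem, had 0.0317 and 0.0728 FPKM in root and 3.5 and 2.98 FPKM in shoot (change -2.01). WUS and CLV3, which define the meristem's stem cells, were not listed in any of the 4 libraries. Other genes of the list had similar or higher FPKM in root: CLV1, a receptor kinase, had 23.2 and 26.8 FPKM in root and 19.1 and 33.5 FPKM in shoot and was called after rescaling only, and the polarity genes PHB, REV and KAN1 were called higher in root on deposited FPKM only. KNAT6, a relative of STM, was higher in root both ways (15.4 and 14.3 FPKM in root, 1.7 and 1.92 FPKM in shoot, change 2.5). Over the list of 26 tested genes, 11 were higher in shoot and 1 in root. TCP24 and AS2 are among the 11, but TCP24 was called neither without shoot replicate 2 (change -0.87) nor without root replicate 1 (adjusted p = 0.0626), and AS2 neither without shoot replicate 1 (change -0.72) nor without root replicate 2 (change -0.69).

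Sugar export genes of the phloem were higher in shoot, while sieve element genes were not. SWEET11, a sucrose exporter, had 2 and 1.52 FPKM in root and 103 and 92.9 FPKM in shoot (change -5.17), and SUC2, which loads sucrose into companion cells, had 14.7 and 16.6 FPKM in root and 140 and 131 FPKM in shoot (change -3.04). SWEET12 had a change of -1.72. APL, a factor of phloem identity, had 16.8 and 15.2 FPKM in root and 5.16 and 6.71 FPKM in shoot and was called on deposited FPKM only. In all 3 of 7 phloem genes were higher in shoot and none in root both ways.

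Several plastid and nitrogen enzymes are encoded by gene families whose members divided between the organs. The list of 31 genes also held the myrosinases TGG1, TGG2, TGG4 and TGG5. Of the 31, 13 were higher in root and 13 in shoot, and the median of 1.70 describes neither group. The list was chosen for organ forms with earlier results of these data known, so the split says nothing about such enzymes in general. Among the ferredoxins, the plastid electron carriers, FD2 had 50.4 and 52.3 FPKM in root and 3584 and 2360 FPKM in shoot (change -5.80), FD1 a change of -3.64, and FD3 had 592 and 624 FPKM in root and 44.2 and 26.1 FPKM in shoot (change 4.12, SE 0.24, limma adjusted p = 6.17e-06). The reductases that pass electrons between ferredoxin and NADP followed the same division. LFNR2 had 1.57 and 1.88 FPKM in root and 147 and 227 FPKM in shoot (change -6.08), and RFNR2 had 551 and 597 FPKM in root and 4.87 and 8.08 FPKM in shoot (change 6.3). No root value overlapped a shoot value in either gene.

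Nitrogen assimilation showed the same arrangement. The plastid glutamine synthetase GS2 had 102 and 99.6 FPKM in root and 877 and 1092 FPKM in shoot (change -3.26), while the cytosolic GLN1-2 had 1731 and 1796 FPKM in root and 178 and 166 FPKM in shoot (change 3.35). Ferredoxin-dependent glutamate synthase GLU1 had 1.1 and 1.13 FPKM in root and 71.4 and 272 FPKM in shoot (change -6.06), and its relative GLU2 had 69.1 and 74.7 FPKM in root and 2.67 and 7.67 FPKM in shoot (change 3.69). The NADH-dependent GLT1 was higher in root (251 and 308 FPKM in root, 11.3 and 43.8 FPKM in shoot, change 3.57). In both GLU1 and GLT1 shoot replicate 1 was far below replicate 2. Nitrate reductase NIA2 had 283 and 288 FPKM in root and 315 and 351 FPKM in shoot and was called in shoot after rescaling only, and nitrite reductase NIR1 was called higher in root on deposited FPKM only (528 and 594 FPKM in root, 121 and 139 FPKM in shoot).

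Glucose-6-phosphate dehydrogenase, which supplies NADPH in plastids, was divided too: G6PD1 had 2.05 and 2.55 FPKM in root and 14.6 and 52.2 FPKM in shoot (change -3.13), and G6PD3 had 87.9 and 103 FPKM in root and 2.49 and 3.28 FPKM in shoot (change 4.64). Phosphoenolpyruvate carboxylase had PPC3 at 232 and 231 FPKM in root and 1.95 and 3.47 FPKM in shoot (change 6.0), and PPC2 at 19.3 and 23.2 FPKM in root and 111 and 191 FPKM in shoot (change -2.73). The myrosinases, which split glucosinolates when tissue is damaged, were separated most. TGG1 had 0.48 and 0.762 FPKM in root and 409 and 882 FPKM in shoot (change -8.54), and TGG2 a change of -7.60. TGG4 had 34.8 and 38.6 FPKM in root and 0 and 0.0747 FPKM in shoot, and TGG5 had 30.8 and 32 FPKM in root and was not listed in shoot.

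**Figure D3:**
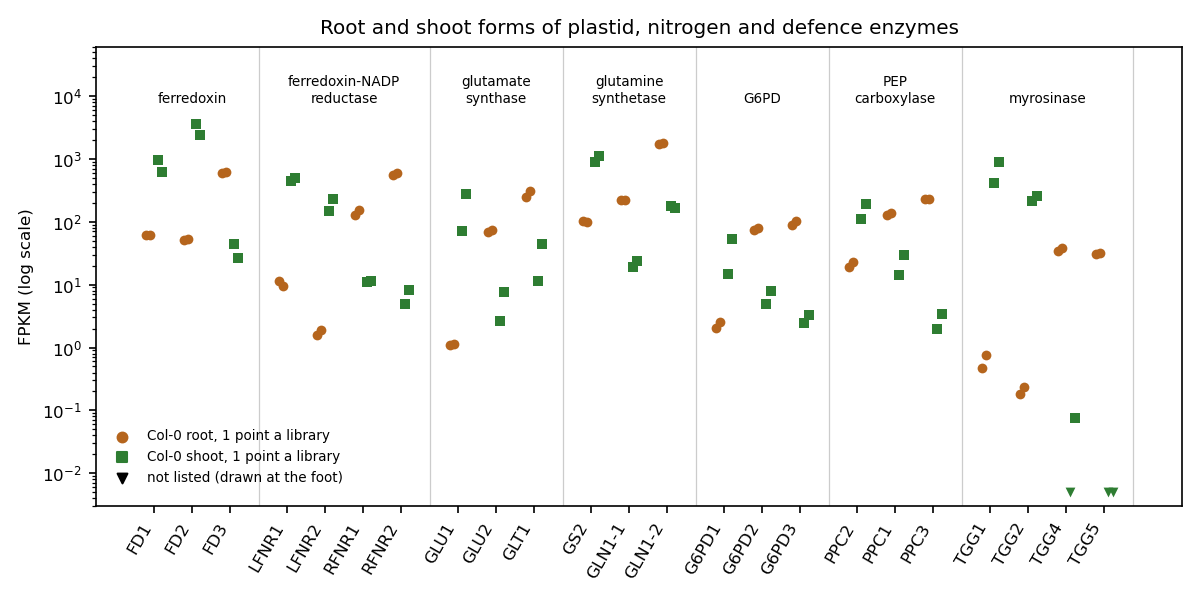
FPKM on a log axis in each Col-0 root library (brown circles) and each Col-0 shoot library (green squares) for members of 7 enzyme families; triangles at the foot mark libraries in which a gene is not listed. Within each family some members are high in root and others in shoot, as for RFNR2 (551 and 597 FPKM in root, 4.87 and 8.08 in shoot) and LFNR2 (1.57 and 1.88 FPKM in root, 147 and 227 in shoot).

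Glucosinolate synthesis made a similar split within a pathway. For aliphatic glucosinolates, which derive from methionine, 7 of 16 tested genes were higher in shoot and 2 in root. The regulators MYB29 and MYB76 were higher in shoot: MYB29 had 0.0244 and 0 FPKM in root and 9.73 and 19.7 FPKM in shoot, and MYB76 was not listed in root and had 3.14 and 4 FPKM in shoot. MYB28 was called in neither direction, with 39.6 and 45.8 FPKM in root and 18.8 and 32.6 FPKM in shoot. Chain elongation had MAM3 at 233 and 258 FPKM in root and 1.54 and 1.83 FPKM in shoot (change 6.52, SE 0.14, limma adjusted p = 1.76e-07), while MAM1, its neighbour, was higher in shoot (51.6 and 59.8 FPKM in root, 121 and 177 FPKM in shoot, change -1.38). The first step of the core pathway had CYP79F1 at 0.254 and 0.493 FPKM in root and 136 and 157 FPKM in shoot (change -6.75), and CYP79F2 at 83.8 and 97 FPKM in root and 11 and 16.2 FPKM in shoot (change 2.67). CYP79F1 and CYP79F2 are close copies in tandem, so part of either value could come from the other. The shared later steps CYP83A1, SOT17 and SOT18 were called in shoot after rescaling only; CYP83A1 had 102 and 126 FPKM in root and 163 and 143 FPKM in shoot.

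Indole glucosinolates, which derive from tryptophan, were higher in root for 3 of 12 genes and in shoot for none, with a median of 1.17, near that of all genes. CYP81F4, which modifies the indole ring, had 774 and 811 FPKM in root and 5.18 and 5.24 FPKM in shoot (change 7.0, SE 0.11, limma adjusted p = 1.44e-07). CYP81F2 and CYP81F3 had changes of 2.41 and 2.3 at far lower levels, CYP81F2 with 11.5 and 9.38 FPKM in root. CYP81F4 shares a merged locus with an overlapping gene in the deposited tables. The core enzymes CYP79B2 and CYP79B3 were called in neither direction, and CYP83B1 in shoot after rescaling only (169 and 169 FPKM in root, 159 and 170 FPKM in shoot).

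Root hair genes were the list with the most members higher in root. Of 27 genes, 25 were higher in root and none in shoot (median 3.47). The regulators came first: RHD6, which starts hair development, had 11.8 and 11.5 FPKM in root and 0 and 0.0739 FPKM in shoot, and RSL4, which sets hair growth, had 5.33 and 4.4 FPKM in root and was not listed in shoot. Among genes of the growing hair, the NADPH oxidase RHD2 had 20.8 and 20.3 FPKM in root and 0.0281 and 0.0646 FPKM in shoot (change 4.37, SE 0.13, limma adjusted p = 2.98e-07). The cell wall proteins PRP3 and EXPA7 followed, PRP3 with 65.2 and 62.4 FPKM in root and 0.136 and 0.355 FPKM in shoot (change 5.71), and EXPA7 with 23.7 and 18.9 FPKM in root and no listing in shoot. GL2, which blocks hair fate in other epidermal cells of the root and promotes leaf hairs, was called in shoot after rescaling only (3.81 and 4.18 FPKM in root, 5.09 and 5.84 FPKM in shoot). CSLD3, a synthase of wall polysaccharides, was called on deposited FPKM only (47.8 and 48.7 FPKM in root, 9.9 and 20.7 FPKM in shoot).

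Of 26 tested genes for the root meristem, cap and patterning, 18 were higher in root and none in shoot both ways (median 2.25). On deposited FPKM 24 were higher in root, against 58.5% of all genes. The PLETHORA factors that maintain the meristem had PLT1 at 5.29 and 7.13 FPKM and PLT2 at 3.91 and 5.23 FPKM in root, and neither was listed in shoot. WOX5, the factor of the stem cell organiser, had 2.57 and 2.95 FPKM in root and 0.0735 and 0.205 FPKM in shoot (change 1.72). The cap factors SMB and BRN1 and the peptide RGF3 had between 5.29 and 6.37 FPKM in root and at most 0.107 FPKM in shoot. UPB1, which regulates the passage to elongation, had 26.9 and 21 FPKM in root and was not listed in shoot. SHR and SCR, which specify ground tissue, were not called both ways: SHR had 18.6 and 24 FPKM in root and 8.46 and 8.3 FPKM in shoot, called on deposited FPKM only, and SCR had 19 and 20.4 FPKM in root and 12.5 and 20 FPKM in shoot.

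The endodermal barrier was higher in root for 11 of 12 genes and in shoot for none (median 4.18). MYB36, the factor that starts Casparian strip formation, had 18.8 and 14.7 FPKM in root and 0.122 and 0.22 FPKM in shoot (change 3.91). The scaffold protein CASP2 had 43.5 and 37.4 FPKM in root and 0.613 and 0.555 FPKM in shoot (change 4.71, SE 0.17, limma adjusted p = 5.34e-07). CASP1, which shares a locus with an overlapping gene, had 122 and 111 FPKM in root and 4.08 and 1.04 FPKM in shoot (change 5.18). ESB1, a dirigent protein, and PER64, a peroxidase, both needed for the lignin of the strip, had changes of 3.96 and 4.66. GSO1, the receptor kinase that monitors the barrier, was called on deposited FPKM only (12.2 and 10.8 FPKM in root, 1.17 and 3.91 FPKM in shoot).

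Suberin synthesis was higher in root for 16 of 18 tested genes and in shoot for none (median 4.22). CYP86A1, which oxidises fatty acids for the polymer, had 111 and 97.1 FPKM in root and 0.133 and 0.0563 FPKM in shoot (change 6.58, SE 0.16, limma adjusted p = 1.89e-07). The acyltransferases GPAT5 and ASFT followed, GPAT5 with 20.9 and 21.5 FPKM in root and no listing in shoot, and ASFT with 120 and 107 FPKM in root and 1.16 and 1.07 FPKM in shoot (change 5.75). Of the elongases, KCS2 had 57 and 50 FPKM in root and 1.69 and 2.16 FPKM in shoot (change 4.22), while KCS20 had 50.6 and 46.6 FPKM in root and 68.3 and 92.6 FPKM in shoot and was not called on deposited FPKM. The regulators MYB41, MYB53, MYB92 and MYB93 were all higher in root, with MYB92 highest at 24.4 and 19.3 FPKM in root and 0.533 and 0.49 FPKM in shoot. FAR1, a fatty alcohol-forming reductase, was called on deposited FPKM only, whereas FAR4 and FAR5 had 36.6 to 40.6 FPKM in root and at most 0.022 FPKM in shoot.

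Xylem genes gave no difference that held under both scales. Of 16 genes, 11 were higher in root on deposited FPKM, where 58.5% of all genes were. None was called in either direction after rescaling, and the median of 1.43 lay close to that of all genes. CESA4, a secondary wall cellulose synthase, had 18.5 and 17 FPKM in root and 3.24 and 6.78 FPKM in shoot (change 1.71, and 0.47 after rescaling), and XCP1, a protease of dying vessels, had 70.2 and 80.3 FPKM in root and 16.3 and 15.8 FPKM in shoot (change 2.15, and 0.80 after rescaling).

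Uptake and loading of minerals was higher in root for 22 of 28 tested genes and in shoot for none (median 3.61). NPF7.3, which loads nitrate into the xylem, had 732 and 825 FPKM in root and 1.74 and 2.72 FPKM in shoot (change 7.93, SE 0.18, limma adjusted p = 1.95e-07). NPF6.3, the nitrate transporter and sensor, differed less, with 308 and 321 FPKM in root and 48.8 and 39 FPKM in shoot (change 2.82). Of the sulphate carriers, SULTR1-2 had 365 and 341 FPKM in root and 0.383 and 0.718 FPKM in shoot (change 7.84). Its root level was far above that of SULTR1-1, at 1.69 and 3.02 FPKM. Phosphate had PHT1-1, an uptake carrier, at 373 and 372 FPKM in root and 0.887 and 1.33 FPKM in shoot (change 7.48). PHO1, which exports phosphate to the xylem, had a change of 5.12. PHT1-1, PHT1-2 and PHT1-3 are close copies, and PHT1-3 was not listed in any of the 4 libraries, so their separate values are uncertain. Among iron uptake genes, the factor FIT had 37.6 and 33.6 FPKM in root and 0.137 and 0.474 FPKM in shoot (change 4.82). The carrier IRT1 had 12.9 and 12.7 FPKM in root and was not listed in shoot. The ferric reductase FRO2 was called in neither direction, with 1.59 and 2.31 FPKM in root and 0.497 and 1.02 FPKM in shoot. The ammonium carriers divided: AMT1-3 had a change of 5.87, and AMT1-1, AMT1-2 and AMT2 were called on deposited FPKM only.

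Secondary metabolites of the root formed compact groups. All 8 genes of the thalianol and marneral clusters, runs of neighbouring genes that make root triterpenes, were higher in root (median 3.98), and the highest was THAD, an oxidising cytochrome P450, with 101 and 91.2 FPKM in root and 0.0163 and 0 FPKM in shoot. The cyclases THAS1 and MRN1 had 57.6 and 53.5 FPKM and 5.32 and 4.86 FPKM in root, with at most 0.0619 FPKM in shoot. Coumarins, which mobilise iron, had 5 of 6 tested genes higher in root. The key enzyme F6'H1 had 93.7 and 89.4 FPKM in root and 0 and 0.0246 FPKM in shoot (change 6.51), and the exporter ABCG37 143 and 141 FPKM in root and 0.0609 and 0.34 FPKM in shoot (change 6.91). MYB72, the factor known to induce the pathway under iron shortage, was not listed in any of the 4 libraries.

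A joint list of jacalins and of genes of the ER bodies, stores of beta-glucosidases, had 7 of 12 tested genes higher in root and 1 in shoot (median 3.24). Of the jacalins, JAL31 was among the 7, PBP1 was called on deposited FPKM only, and JAL22 was called in neither direction. PYK10, the main root enzyme, had 5922 and 5552 FPKM in root and 594 and 649 FPKM in shoot (change 3.20, SE 0.12, limma adjusted p = 5.7e-07); it shares a locus with an overlapping gene. BGLU21 and BGLU22, relatives of PYK10, had 228 and 220 FPKM and 138 and 134 FPKM in root and at most 0.433 FPKM in shoot. The exception was BGLU18, the wound-related enzyme of leaf ER bodies, with 0.584 and 0.744 FPKM in root and 39 and 60.6 FPKM in shoot (change -4.90). NAI2, a protein of ER body formation, had 368 and 329 FPKM in root and 8.74 and 24.6 FPKM in shoot, and the related TSA1 was called in shoot after rescaling only.

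Other families were divided by member. Among 12 tested MADS-box factors of the vegetative plant, 6 were higher in root and 3 in shoot. AGL12 had 30.9 and 26.8 FPKM in root and 0.233 and 0.233 FPKM in shoot (change 4.6), and AGL14, AGL17, AGL21 and AGL42 were not listed in shoot. The floral regulators SVP, AGL20 (SOC1) and FLC were higher in shoot, SVP with 8.21 and 9.14 FPKM in root and 42.6 and 42.6 FPKM in shoot (change -2.17). Of the PIN carriers, which export auxin, PIN2 had 56.6 and 55.7 FPKM in root and 0.0388 and 0.102 FPKM in shoot (change 5.74), and PIN4 and PIN6 were higher in shoot (changes -1.62 and -1.48). PIN3, PIN5 and PIN7 were not called both ways.

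Aquaporins, the water channels, had 4 of 20 members higher in root and 7 in shoot. Over all genes the shares were 20.1% in root and 11.7% in shoot, so the root count was near its share. After rescaling alone, 4 were called in root and 11 in shoot, against 20.1% and 22.1% of all genes. PIP2-4, TIP2-3, TIP4-1 and NIP1-1 were the members higher in root. TIP2-3 had 72.2 and 49.1 FPKM in root and 0 and 0.071 FPKM in shoot, and TIP4-1 59.4 and 60.9 FPKM in root and 0.275 and 0.706 FPKM in shoot. PIP2-6 had 7.62 and 4.83 FPKM in root and 374 and 284 FPKM in shoot (change -5.53), and TIP2-1 had 72.9 and 57.8 FPKM in root and 1852 and 1297 FPKM in shoot (change -4.56). The plasma membrane forms PIP1-2 and PIP2-1 were called in shoot after rescaling only and not on deposited FPKM.

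The circadian clock had 5 of 13 genes higher in root and none in shoot. The evening genes ELF4 and LUX were the firmest, ELF4 with 24.8 and 26.2 FPKM in root and 1.42 and 1.41 FPKM in shoot (change 3.46) and LUX with 24.5 and 24.4 FPKM in root and 2.88 and 3.22 FPKM in shoot (change 2.65). The rescaled calls of PRR5, TOC1 and ELF3 ended without shoot replicate 1, where their rescaled changes were 0.91, 0.66 and 0.78. The morning factor LHY was called in neither direction, and CCA1 in shoot after rescaling only, with 7.45 and 6.75 FPKM in root and 7.77 and 21.9 FPKM in shoot. The labels do not give the hour of harvest, and whether both organs were frozen at the same time is not stated.

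Cell division genes gave no call both ways in 15 genes, and their median was 0.56. On deposited FPKM 4 were higher in root, a smaller share than the 58.5% of all genes. After rescaling 3 were higher in shoot, near the 22.1% of all genes. The mitotic cyclin CYCB1-1 had 5.7 and 5.54 FPKM in root and 2.29 and 2.95 FPKM in shoot, and the ribonucleotide reductase subunit TSO2 42.7 and 49.4 FPKM in root and 97.2 and 80.7 FPKM in shoot.

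Gene families taken by name showed which enzyme and regulator classes leaned to either organ. Class III peroxidases, which build and loosen walls, had 47 of 61 tested members higher in root (77%, against 20.1% of all genes) and 8 higher in shoot. The laccases (8 of 13, 61.5%), the tau-class glutathione transferases (17 of 26, 65.4%) and the WRKY factors (32 of 55, 58.2%) were also called mostly in root, with 0, 4 and 1 members higher in shoot. NAC factors had 30 of 75 members higher in root and 3 in shoot, and MYB factors 40 of 83 in root and 11 in shoot. In the other direction, the ketoacyl-CoA synthases, which make very long fatty acids, had 1 of 16 members higher in root and 9 in shoot (56.2%, against 11.7% of all genes). ERF factors had 11 of 66 in root (16.7%) and 19 in shoot (28.8%). Alpha-expansins had 4 of 17 in root (23.5%) and 7 in shoot (41.2%), and SAUR genes 16 of 55 in root (29.1%) and 21 in shoot (38.2%). In both of these families the shoot share lay above the 11.7% of all genes. The root share lay above 20.1% for SAUR genes and near it for alpha-expansins. Cytochromes P450 (66 in root and 47 in shoot of 191) and beta-glucosidases (12 in root and 10 in shoot of 30) leaned to neither organ as clearly. Families were taken from gene names and may miss members named otherwise.

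**Figure D4:**
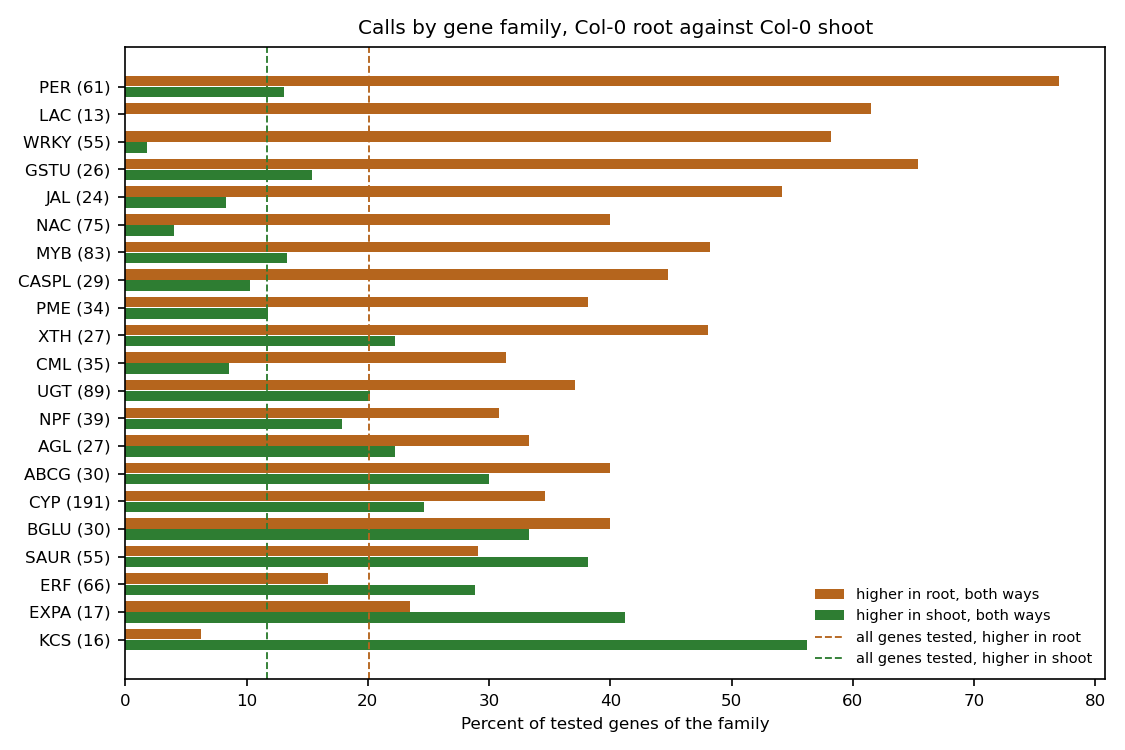
Percent of the tested genes of each family that were higher in Col-0 root (upper bar) or in Col-0 shoot (lower bar) both ways, with the number tested in brackets. Dashed lines mark the shares over all genes, 20.1% in root and 11.7% in shoot; peroxidases reach 77% in root and ketoacyl-CoA synthases 56.2% in shoot.

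Within these families the following were picked after their values were seen. The peroxidase PER69 had 350 and 295 FPKM in root and 0.231 and 0.466 FPKM in shoot (change 7.91), whereas PER12 had 12.7 and 11.8 FPKM in root and 115 and 110 FPKM in shoot (change -3.10). WRKY65 had 99.3 and 97.6 FPKM in root and 0.424 and 0.705 FPKM in shoot (change 6.0), and WRKY22 was the family member higher in shoot (8 and 7.78 FPKM in root, 36.7 and 31.6 FPKM in shoot, change -1.98). Enzymes that remodel xyloglucan differed in the same way, with XTH6 not listed in root and at 102 and 89 FPKM in shoot, and XTH21 at 18.2 and 17.5 FPKM in root and not listed in shoot. The expansins EXPA5 and EXPA8 had changes of -4.62 and -4.94, opposite to the root hair expansins above. The laccase LAC7 had 176 and 155 FPKM in root and 0 and 0.053 FPKM in shoot.

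The 15 largest increases in root came from several kinds of gene. DOX1 (AT3G01420; chromosome 3, 159466 to 162837), an alpha-dioxygenase of fatty acids, had 1385 and 1330 FPKM in root and 0.169 and 0.499 FPKM in shoot (change 10, SE 0.14, limma adjusted p = 1.44e-07). GRP9, a glycine-rich protein, had 756 and 1296 FPKM in root and 0.276 and 0.252 FPKM in shoot (change 9.61). The major latex proteins MLP328 and MLP329, which are neighbours on chromosome 2, and MLP34 had changes of 8.48, 8.51 and 8.24. The extensin EXT3, a structural wall protein, had 3230 and 2913 FPKM in root and 5.47 and 9.86 FPKM in shoot (change 8.52). OSM34, an osmotin, the glutathione transferase GSTU25 and FLS5, named for flavonol synthase, had changes of 8.26, 8.12 and 8.58. AT3G41768, the ribosomal RNA, also met the rule for the 15 largest, but its shoot zeros are in doubt as described above.

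Among the 15 largest decreases, 6 were antenna genes, 4 were Rubisco small subunit genes and the rest included FBA1, GOX1 and the carbonic anhydrases CA1 and CA2, which interconvert carbon dioxide and bicarbonate. CA1 had 0.559 and 1.53 FPKM in root and 3792 and 3179 FPKM in shoot (change -10.77, SE 0.23, limma adjusted p = 1.87e-07), and CA2 a change of -9.33. AT2G10940, to which the reference gives no name, had 0.404 and 0.465 FPKM in root and 1816 and 1661 FPKM in shoot (change -10.24).

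Genes limited to an organ were more numerous in root. With at least 5 FPKM in both libraries of a tissue and under 0.1 FPKM in both of the other, 462 genes (2.32%) were limited to root and 125 (0.627%) to shoot, with median highest values of 15.3 and 18.1 FPKM. Of these, 43 root genes and 10 shoot genes belong to the lists above. The root genes come most often from the root hair and suberin lists, and the shoot genes include the 4 YABBY genes tested, the stomatal genes SDD1 and EPFL9, the antenna gene LHCA6 and the sigma factor SIG4. The limits apply to deposited FPKM, on which root values are higher in general.

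The mutant libraries share no sample with the Col-0 ones, and most genes called in Col-0 had the same direction there. Each genotype was then fitted alone, on values rescaled with factors from all 8 libraries. In Col-0, 3746 genes were higher in root, of which 3733 had the same direction in the mutant and 3052 (81.5%) were called there. Those 3052 were 82% of the 3723 genes called in the mutant. Of 4245 genes higher in shoot in Col-0, 4238 had the same direction in the mutant and 3648 (85.9%) were called, which is 88.4% of the 4127 called in the mutant. On deposited FPKM, 8335 genes (41.8%) were higher in root and 2750 (13.8%) higher in shoot in the mutant. The list medians were -7.46 in Col-0 and -7.13 in the mutant for the photosystems, and 4.18 in Col-0 and 4.68 in the mutant for the endodermis. Other lists lay further apart, with 1.17 in Col-0 and 0.27 in the mutant for indole glucosinolates, 1.91 in Col-0 and 0.96 in the mutant for the clock, and 1.70 in Col-0 and 0.93 in the mutant for the organ forms of enzymes. The median shift of all genes was 1.23 in Col-0 and 0.81 in the mutant. No gene passed a limma adjusted p of 0.05 for the difference between the genotypes' tissue changes, and 3082 of 19946 had an unadjusted p under 0.05. That count of 0 depends on the Col-0 shoot pair: it was 2063 genes without shoot replicate 1 and 11501 without shoot replicate 2. Of the SAUR genes whose mutant is the subject of the series, SAUR41 had 7.98 and 7.15 FPKM in root and 1.21 and 0.745 FPKM in shoot (change 2.12), SAUR71 0.173 and 0.986 FPKM in root and 7.91 and 5.22 FPKM in shoot (change -2.29), and SAUR72 was called on deposited FPKM only (change 1.58). SAUR40 stayed below the minimum, not listed in Col-0 root and at 0.099 and 0.0561 FPKM in Col-0 shoot. In the mutant SAUR41 had 7.75 and 7.1 FPKM in root, SAUR72 16.9 and 16.3 FPKM in root, and SAUR71 3.28 and 3.02 FPKM in shoot. SAUR40 had 0 and 0.073 FPKM in mutant root and was not listed in mutant shoot. Whether the mutant transcripts are intact was not tested.

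**Figure D5:**
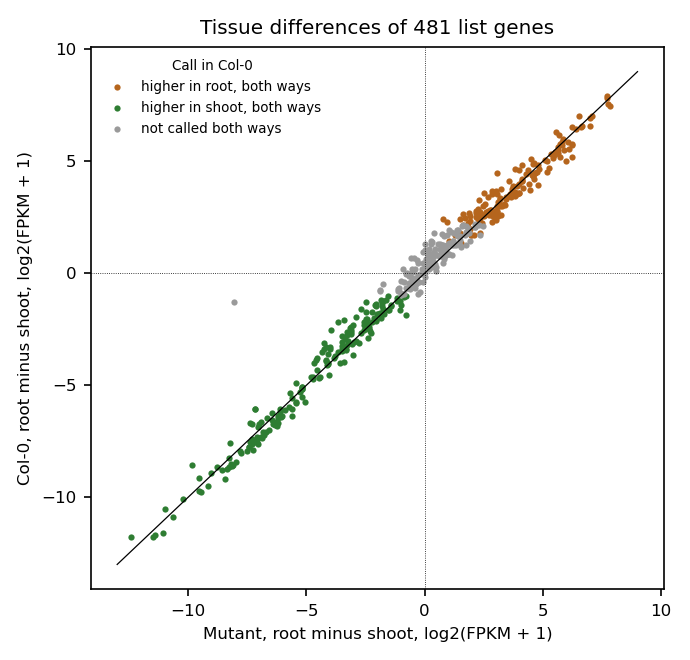
Change of root minus shoot on log2(FPKM + 1) in the mutant (horizontal axis) and in Col-0 (vertical axis) for the 481 tested genes of the lists, 1 point a gene, coloured by the Col-0 call made both ways. Points run along the line of equal change but not all on it, as the indole glucosinolate median was 1.17 in Col-0 and 0.27 in the mutant. The isolated point at a Col-0 change of -1.28 is LHCB1.3, listed at 0 in Col-0 shoot replicate 1.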

How the data were processed

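Total RNA was extracted with TRizol from frozen root and shoot parts and sequenced on an Illumina HiSeq, per the labels' protocols. The authors deposited FPKM per gene for each library, and the TAIR10 build is named per the submitters' processing notes; the aligner, counter, strandedness and read numbers were not given in the sources used here. No counts were used, so no count model was run. Genes absent from a table were set to 0, and 25141 of 25397 IDs matched the TAIR10.1 reference table used for names. 3119 of the genes analysed (15.6%) share a merged locus with an overlapping gene, so their reads may be divided wrongly.

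Log2(FPKM + 1) of all 8 libraries entered a linear model of 4 groups in limma 3.58.1 (R 4.3.3) with 4 residual degrees of freedom, trended, robust moderation and Benjamini-Hochberg adjustment over 19946 genes; the script was tested on simulated data. Calls needed an adjusted p under 0.05 and a change of at least 1. A second fit used values rescaled by the median ratio, with factors from the 19513 genes above 0 in all 8 libraries. The genes named by rule were the 15 largest changes each way, up to 6 called members of each list in each direction, all members of lists of 13 or fewer, all markers and the SAUR genes. The members and lists were chosen with earlier results of these data known. Alternatives covered pseudocounts, filters, scaling, leaving out libraries and a replicate block; a planned promoter motif search was not run. Some single genes are not reported here.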

Additional observations from a re-analysis of the deposited data

Results flagged for a closer look

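The indole glucosinolate genes UGT74B1 and CYP79B3 had changes of opposite sign in the genotypes on deposited FPKM, but not after median-ratio rescaling. UGT74B1, a glucosyltransferase, had 94.7 and 98.5 FPKM in Col-0 root and 46.5 and 76.7 FPKM in Col-0 shoot. In the mutant it had 99.2 and 88.9 FPKM in root and 129 and 125 FPKM in shoot. Its change of root minus shoot was 0.68 in Col-0 and -0.43 in the mutant, a difference of 1.12. CYP79B3, which converts tryptophan to its oxime, had 97.4 and 109 FPKM in Col-0 root and 58.4 and 78.2 FPKM in Col-0 shoot. In the mutant it had 99 and 86.7 FPKM in root and 112 and 120 FPKM in shoot. Its change was 0.60 in Col-0 and -0.32 in the mutant, a difference of 0.92. In each gene both Col-0 root values lay above both Col-0 shoot values, and both mutant root values lay below both mutant shoot values. The median change of all genes was 1.23 in Col-0 and 0.81 in the mutant. After rescaling the changes were -0.70 in Col-0 and -1.30 in the mutant for UGT74B1, and -0.79 in Col-0 and -1.18 in the mutant for CYP79B3. The limma test of the difference passed for neither gene on deposited FPKM (adjusted p = 0.276 for UGT74B1 and 0.267 for CYP79B3) or after rescaling (adjusted p = 0.455 for UGT74B1 and 0.517 for CYP79B3).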

How the results depend on the processing

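Median-ratio rescaling moved the counts of genes higher in root and in shoot by more than 1.5 times, while other scalings moved them less. Against 11662 genes higher in root and 2326 higher in shoot on deposited FPKM, median-ratio rescaling gave 4009 and 4416. With 2 alternatives chosen after seeing the data, rescaling gave 3964 and 4248 without Col-0 shoot replicate 1, and 3746 and 4245 with the 4 Col-0 libraries alone. Equal sums without photosystem, Calvin cycle and organelle genes gave 7482 genes higher in root, and a call at a change of at least 2 gave 4407 in root and 1333 in shoot. Other pseudocounts, filters, moderation without trend, removal of the span trend and a call by adjusted p alone kept both counts within 1.5 times. Leaving out 1 library gave 10089 to 12605 genes in root and 2158 to 2510 in shoot, with the lone library assumed to vary like the other groups. The genotype difference in the tissue change gave 0 to 11501 genes over the same fits: 2063 without Col-0 shoot replicate 1, 11501 without Col-0 shoot replicate 2, and 1 without either Col-0 root replicate 2 or mutant shoot replicate 2. Organ-limited genes were 889 in root and 303 in shoot with a limit of 0.5 FPKM in the other organ, and 794 and 208 with at least 2 FPKM in the first. The causes were not tested.

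After rescaling, 32 named genes with a positive change on deposited FPKM had a negative one; 22 of them were not called on deposited FPKM, and 10 were. For those 10 the rescaled changes were -0.05 for PHYA, -0.25 for MYB51, -0.02 for CDKB2-2, -0.03 for GRF1, -0.24 for PHB, -0.21 for PIP2-3, -0.03 for CDKB1-1, -0.28 for BASS5, -0.17 for AUR1 and -0.07 for SHR, and the same with the Col-0 libraries alone. Rescaled without Col-0 shoot replicate 1, the changes were -0.53 for PHYA, -0.23 for FLP, -0.37 for MYB51, -0.11 for CDKB2-2, -0.40 for PHB, -0.40 for BASS5, -0.13 for AUR1, -0.29 for KAN1 and -0.02 for CESA7.

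A fit with the replicate number as a block gave 11696 genes in root, 2330 in shoot and 0 for the genotype difference. The labels do not say that a replicate number marks a shared batch, so the samples share only a number. Deviations of same-numbered libraries correlated at -0.000843 between Col-0 root and Col-0 shoot, and over all 6 pairs of groups the correlations ran between -0.112 and 0.153. Read numbers are unknown, so the counting error of low values could not be given.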
